A study of Mus musculus with 81 samples.

Results

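The T-cell receptor beta (TCRβ) repertoire of EG7.OVA tumors was compared between mice given the full dose of mRBC-OVA-4-1BBL-IL-12 and mice given mRBC-CTRL, after the transferred OT-1 clone and the lymphoma clone had been set aside. The 10 tumor libraries labelled 1e9 mRBC-OVA-4-1BBL-IL-12 (5 mice) or mRBC-CTRL (5 mice) were taken from 81 libraries of blood and tumor in all. Within each library, every productive rearrangement was kept except those encoding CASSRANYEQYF, the OT-1 receptor, or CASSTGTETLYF, the receptor carried by EG7.OVA cells. What remained is called the endogenous repertoire below, although no label separates host cells from other cells once these CDR3s are out.

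All mice were Pep Boy CD45.1 animals that carried a subcutaneous tumor grown from 2e6 EG7.OVA cells in Matrigel, an ovalbumin-expressing line derived from the EL4 T-cell lymphoma. They were randomized at an average tumor volume of about 175 mm3, and every mouse in both groups then received 1e6 naive OT-1 CD8 T cells by vein. OT-1 cells carry a transgenic receptor for the ovalbumin peptide SIINFEKL on H-2Kb. The treated group received 1e9 mouse red blood cells conjugated with Kb-SIINFEKL, 4-1BBL and IL-12 on days 0 and 3, and the control group received 1e9 unmodified mouse red blood cells on the same days. Tumors were taken on day 7, and the sequenced DNA came from a part of each tumor cell suspension, so each library samples 1 tumor and not a counted number of T cells.

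A TCRβ chain is made by joining a V, a D and a J segment, with bases trimmed from the ends and untemplated (N) bases added at the joints. The CDR3, the loop that spans the joint and contacts peptide, is nearly unique to a T-cell clone, so a rearrangement found many times marks a clone that divided. Joints that fall out of frame or contain a stop codon give no protein, and a T cell can carry such a non-productive rearrangement on its other chromosome. Because no protein is made from it, a non-productive rearrangement is not itself selected by antigen.

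The rearrangements on which the comparison rests are shown as deposited, read 5′ to 3′, with the CDR3 part in capitals up to the end of the read. The first pair are the clones that were removed, each represented by 1 nucleotide sequence as its most abundant form in all 10 tumors.
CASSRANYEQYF (OT-1, TCRBV12-01 with TCRBJ02-07): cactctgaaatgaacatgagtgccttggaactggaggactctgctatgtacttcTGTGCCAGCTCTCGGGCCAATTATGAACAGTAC
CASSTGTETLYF (lymphoma, TCRBV15-01 with TCRBJ02-03): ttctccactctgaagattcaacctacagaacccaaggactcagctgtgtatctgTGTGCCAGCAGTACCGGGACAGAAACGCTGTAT

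The next 5 sequences are the largest endogenous clone in each mRBC-CTRL tumor, mice 1 to 5 in order. They are shown because clones of this size set the V and J shares described further on.
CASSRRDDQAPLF (TCRBV12-02 with TCRBJ01-05): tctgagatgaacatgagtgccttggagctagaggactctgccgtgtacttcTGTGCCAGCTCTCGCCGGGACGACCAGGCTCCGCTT
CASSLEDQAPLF (TCRBV16-01 with TCRBJ01-05): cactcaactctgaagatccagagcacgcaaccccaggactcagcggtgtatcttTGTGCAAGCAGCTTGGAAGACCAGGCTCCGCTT
TCRBV16-01 with TCRBJ02-07, a CDR3 of 15 residues: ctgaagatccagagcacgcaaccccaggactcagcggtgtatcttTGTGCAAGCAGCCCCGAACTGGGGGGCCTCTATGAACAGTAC
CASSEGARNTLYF (TCRBV05-01 with TCRBJ02-04): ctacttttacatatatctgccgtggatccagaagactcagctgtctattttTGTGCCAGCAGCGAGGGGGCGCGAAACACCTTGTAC
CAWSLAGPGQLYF (TCRBV31-01 with TCRBJ02-02): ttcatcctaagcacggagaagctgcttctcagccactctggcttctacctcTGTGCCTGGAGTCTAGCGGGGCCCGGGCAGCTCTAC

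The largest endogenous clones of the 1e9 tumors, again in the order of mice 1 to 5, follow.
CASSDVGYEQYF (TCRBV13-03 with TCRBJ02-07): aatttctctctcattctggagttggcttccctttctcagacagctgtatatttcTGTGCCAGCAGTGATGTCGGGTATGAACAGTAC
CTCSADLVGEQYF (TCRBV01-01 with TCRBJ02-07): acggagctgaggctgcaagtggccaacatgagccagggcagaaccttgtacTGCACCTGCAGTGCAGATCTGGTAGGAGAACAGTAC
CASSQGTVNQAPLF (TCRBV02-01 with TCRBJ01-05): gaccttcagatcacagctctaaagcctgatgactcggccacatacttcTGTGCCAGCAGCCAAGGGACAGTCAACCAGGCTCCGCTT
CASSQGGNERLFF (TCRBV05-01 with TCRBJ01-04): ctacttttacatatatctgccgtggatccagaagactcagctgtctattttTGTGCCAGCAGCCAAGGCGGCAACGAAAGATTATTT
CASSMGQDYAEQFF (TCRBV19-01 with TCRBJ02-01): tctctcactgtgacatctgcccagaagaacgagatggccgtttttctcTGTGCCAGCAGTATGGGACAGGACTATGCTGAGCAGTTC

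The endogenous repertoire was sampled more deeply in the control tumors. The mRBC-CTRL libraries held 16648, 11484, 23605, 15304 and 11822 endogenous templates in mice 1 to 5, and the 1e9 libraries held 2974, 832, 4037, 4241 and 3873. No treated library reached the lowest control library. A template is an estimated input molecule, so fewer templates can mean fewer T cells or less DNA in the reaction, and these cannot be told apart. The templates fell on 3631, 2357, 4134, 3900 and 2539 distinct rearrangements in the control tumors, and on 768, 380, 659, 1014 and 953 in the treated tumors. Richness was therefore computed at equal depth, and 1e9 mouse 2, with 832 templates, set that depth. The shares, the effective number of clones, the means of CDR3 length and N bases and the counts of shared rearrangements used all templates or rearrangements of each library, unless equal depth is stated.

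Libraries of different mice should share few nucleotide sequences, because N bases make most joints private. Of the 12 clones that held at least 1% of the endogenous templates in 1e9 mouse 1, 8 were also present in 1e9 mouse 2, where they held 13 templates together. In all, 13 endogenous rearrangements were common to these libraries, with 1016 templates in mouse 1 and 18 in mouse 2, which is 2.16% of the endogenous templates of mouse 2. Another 25 rearrangements common to them were non-productive, including the 6 found in all 10 tumors that are described further on. Among the other ordered pairs of tumors, 1e9 mouse 3 and mouse 5 also stood out, with 4 of the 17 large clones of mouse 3 found in mouse 5 at 5 templates together, and no other pair had more than 1. With the shared sequences taken out of 1e9 mouse 2, each of the 11 single values tested below kept its direction. Each also stayed on its side of an unadjusted exact permutation p of 0.05. The overlap of 1e9 mice 3 and 5 was not taken out.

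Richness, the number of different productive rearrangements expected in 832 templates, was not distinguishable between the groups. It was 349, 282, 320, 419 and 335 rearrangements in the control tumors and 315, 380, 215, 315 and 309 in the 1e9 tumors. The groups overlapped, with the lowest value in 1e9 mouse 3 and the highest in mRBC-CTRL mouse 4. The means were 341 ± 50.2 and 307 ± 59.0 (SD, n = 5 each), and the log2 difference of -0.16, a ratio of 0.893, had an exact permutation p of 0.373, with a 95% interval of the ratio from 0.681 to 1.14. The result was sensitive to 1e9 mouse 2, both through its own value and through the depth it imposed. Without it the comparison could be made at 2974 templates, where the 5 control tumors held 964 ± 131 rearrangements and the 4 remaining treated tumors 727 ± 128 (log2 difference -0.42, exact permutation p = 0.0159). With the depth kept at 832 templates and the same mouse left out, the difference was -0.25 (exact permutation p = 0.190).

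**Figure D1:**
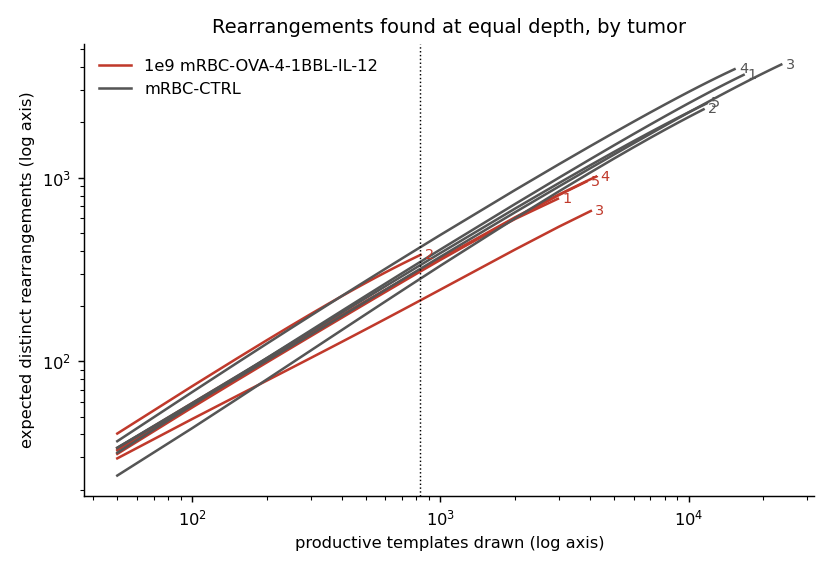
Expected number of distinct endogenous rearrangements (log axis) against the number of productive templates drawn (log axis), 1 line per tumor, numbered by mouse, for mRBC-CTRL (grey) and 1e9 mRBC-OVA-4-1BBL-IL-12 (red). The dotted line marks 832 templates, where the lines of both groups run between 215 and 419 rearrangements and overlap; the red lines end at fewer templates than any grey line.

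The endogenous repertoire was dominated by a few clones in both groups. The largest clone held 26.7%, 31.9%, 10.3%, 14.4% and 10.8% of the endogenous templates in control mice 1 to 5. In the treated mice it held 13.4%, 7.81%, 11.9%, 17.4% and 29.2%. These ranges overlapped almost fully, and the means of 18.8% ± 9.85 and 15.9% ± 8.17 (SD, n = 5 each) gave an exact permutation p of 0.683. The 10 largest clones together held 47.9% ± 9.57 of the control and 45% ± 8.27 of the 1e9 endogenous templates (exact permutation p = 0.635). The effective number of clones, the number of equally large clones that would give the same chance of drawing a clone again, ran from 7.50 to 32.4 in the control tumors and from 11 to 71.2 in the 1e9 tumors, with the highest value in the shallow 1e9 mouse 2 (means 22.3 ± 11.4 and 30.9 ± 23.2, exact permutation p = 0.556). The log2 difference of 0.41 was 0.041 without that mouse. The intervals of these differences were wide. For the largest clone the 95% interval of the difference, treated minus control, ran from -18.5 to 10.7 percentage points.

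**Figure D2:**
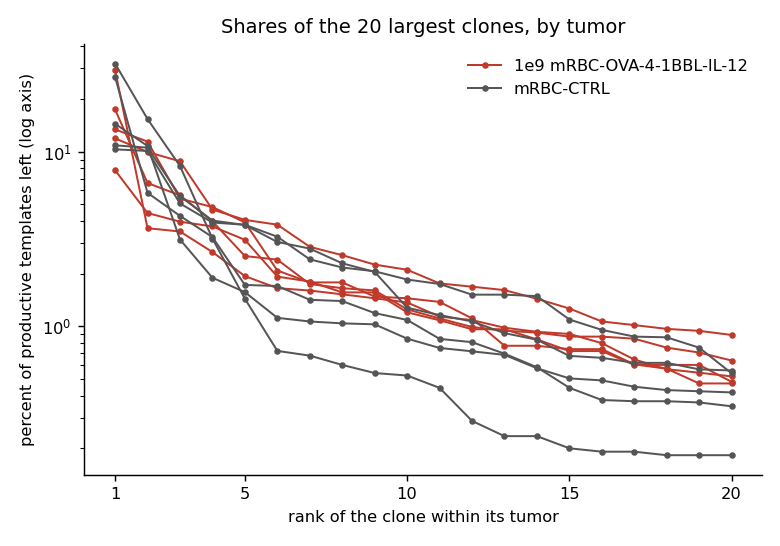
Percent of endogenous productive templates (log axis) held by each of the 20 largest clones of a tumor, by rank, 1 line per tumor, for mRBC-CTRL (grey) and 1e9 mRBC-OVA-4-1BBL-IL-12 (red). The first rank lies between 7.81% and 31.9% and the lines of the groups cross; mRBC-CTRL mouse 2, whose largest clone held 31.9%, lies lowest at rank 6 and at every rank after it.

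The 10 largest clones were 10 different rearrangements, and 8 of them were found in no other of these tumors. The exceptions were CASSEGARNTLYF, with 1 template in another tumor, and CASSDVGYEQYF, with 3 templates in 1e9 mouse 2. The CDR3 with the largest share, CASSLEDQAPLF in mRBC-CTRL mouse 2, held 3659 templates (31.9%, Wilson 95% interval 31.0 to 32.7). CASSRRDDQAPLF in mRBC-CTRL mouse 1 held 4447 templates (26.7%, 26.0 to 27.4). In the treated group, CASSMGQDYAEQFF in mouse 5 held 1131 templates (29.2%, 27.8 to 30.7), and its joint carried 0 N bases. The largest clone of 1e9 mouse 2, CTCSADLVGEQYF, held 65 templates (7.81%, 6.18 to 9.84). The intervals, like the floors given further on, cover counting error only.

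Few CDR3s were large in more than 1 tumor. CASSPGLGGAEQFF held 1.45% of the endogenous templates in control mouse 2 and 1.07% in control mouse 4. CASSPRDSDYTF held 1.43% in control mouse 1 and 8.68% in control mouse 5, where it was encoded by more than 1 nucleotide sequence. The only CDR3 above 1% in a tumor of each group, 15 residues long, held 1.54% in control mouse 3 and 1.73% in 1e9 mouse 5. By nucleotide sequence the tumors shared little, with a median of 12 endogenous rearrangements per pair of control tumors, 2.5 per pair of treated tumors and 2 per pair across the groups. These counts were made at the unequal depths given above and were not tested.

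The largest tumor clones were looked up, by nucleotide sequence, in the blood of the same mouse before and after treatment. On day 7, the largest clone was read in the blood of all 4 control mice and all 5 treated mice whose libraries were looked up. It held 0.442% to 1.37% of the endogenous blood templates in the control mice and 0.125% to 13.7% in the treated mice. On day 0, it was read in 1 of 5 control mice, as 1 template of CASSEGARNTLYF (0.0137%), and in 1 of 4 treated mice, as 2 templates of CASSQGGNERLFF (0.0415%). Both rest on fewer than 3 templates, so these shares are imprecise. On day 7, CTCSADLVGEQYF in 1e9 mouse 2 likewise rested on 2 templates (0.125%). The day 7 blood of 1e9 mouse 5, where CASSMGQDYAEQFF held 13.7%, had only 482 endogenous templates, of which 66 were this clone. The frequency in tumor exceeded that in blood in all 9 mice, by 2.13 to 72.0 times, with 1e9 mouse 5 at the low end and mRBC-CTRL mouse 2 at the high end. These clones were picked as the largest in tumor, which by itself favors a higher frequency there, so enrichment in tumor was not tested. The ratio of 62.3 in 1e9 mouse 2 rests on its 2 blood templates.

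V segment use of the endogenous templates varied strongly from mouse to mouse, and no V segment passed the test. Of 21 segments with enough templates, 0 (0%) reached an adjusted p under 0.05 in edgeR's quasi-likelihood test, and 4 (19%) had an unadjusted p under 0.05. DESeq2 called 1 segment, TCRBV16-01 (adjusted p = 0.0112), and returned no adjusted p for TCRBV12-02 (log2 difference -2.33). Of the 21 log2 differences, 12 were positive and 9 negative, with a median of 0.26 (positive, higher in the 1e9 tumors), and 0 segments (0%) had groups that did not overlap.

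TCRBV19-01 was the most used segment over the 10 tumors. Its share was 2.82%, 3.74%, 6.79%, 19.5% and 6.25% in the control tumors and 14.6%, 5.89%, 18.6%, 9.83% and 42.5% in the 1e9 tumors. All treated values but that of mouse 2 lay above the control median, but the highest control value exceeded 4 of the 5 treated ones (log2 difference 1.23 ± 0.65 SE, edgeR adjusted p = 0.203). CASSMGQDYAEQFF gave 68.7% of the TCRBV19-01 templates in 1e9 mouse 5. Without the largest clone of each tumor the difference was 0.69, and leaving out 1 mouse gave 0.65, without 1e9 mouse 5, to 1.90, without control mouse 4. In the 2.5e8 tumors, given here as values only, the same segment ran from 14.4% to 38.8%. Of the segments described next, TCRBV16-01 ran from 0.695% to 10.2% in the 2.5e8 tumors, TCRBV12-02 from 2.00% to 5.11% and TCRBV02-01 from 0.870% to 4.15%. A relation to dose was not tested.

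TCRBV16-01 and TCRBV12-02 had the largest negative differences, and single clones held most of their templates in the highest control tumors. TCRBV16-01 held 2.59%, 33.8%, 11.9%, 4.19% and 2.33% in the control tumors and 2.93%, 3.00%, 1.44%, 4.41% and 2.04% in the 1e9 tumors (log2 difference -1.99 ± 0.73 SE, edgeR adjusted p = 0.186). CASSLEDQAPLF made up 94.4% of the TCRBV16-01 templates in control mouse 2, and the 15-residue clone printed above made up 86.5% of them in control mouse 3. Without the largest clone of each tumor the difference of TCRBV16-01 was 0.078. TCRBV12-02 held 29.2% in control mouse 1, where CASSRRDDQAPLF gave 91.4% of its templates, and 1.79% to 3.52% in the other control tumors. It held 1.14% to 3.23% in the 1e9 tumors (log2 difference -1.98 ± 0.78 SE, edgeR adjusted p = 0.186). Without the largest clones its difference was -0.37.

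TCRBV02-01 moved the other way. It was even among the control tumors, at 3.40%, 2.93%, 3.80%, 3.07% and 4.04%, and held 7.03%, 8.89%, 14.2%, 7.57% and 2.84% in the 1e9 tumors. The treated tumors of mice 1 to 4 lay above all control tumors, and mouse 5 lay below them all (log2 difference 1.23 ± 0.51 SE, edgeR adjusted p = 0.186). In mouse 3, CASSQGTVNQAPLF gave 83.8% of these templates. TCRBV13-03 held 1.48% to 7.66% in the control and 1.66% to 16.6% in the 1e9 tumors (log2 difference 1.01, adjusted p = 0.275), and TCRBV12-01, the segment that OT-1 also uses and whose OT-1 templates were removed, held 2.59% to 13.5% and 3.06% to 6.13% (log2 difference -1.03, adjusted p = 0.203). The remaining segments among the 10 most used, TCRBV05-01, TCRBV13-02, TCRBV04-01 and TCRBV13-01, had log2 differences of -0.0090, -0.25, -0.24 and 0.46, with edgeR adjusted p from 0.554 to 0.988. TCRBV24-01, less used and named after its values were seen because it had an unadjusted p under 0.05, held 0.499% to 1.03% in the control and 0.481% to 2.35% in the 1e9 tumors (log2 difference 1.14, edgeR adjusted p = 0.203).

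**Figure D3:**
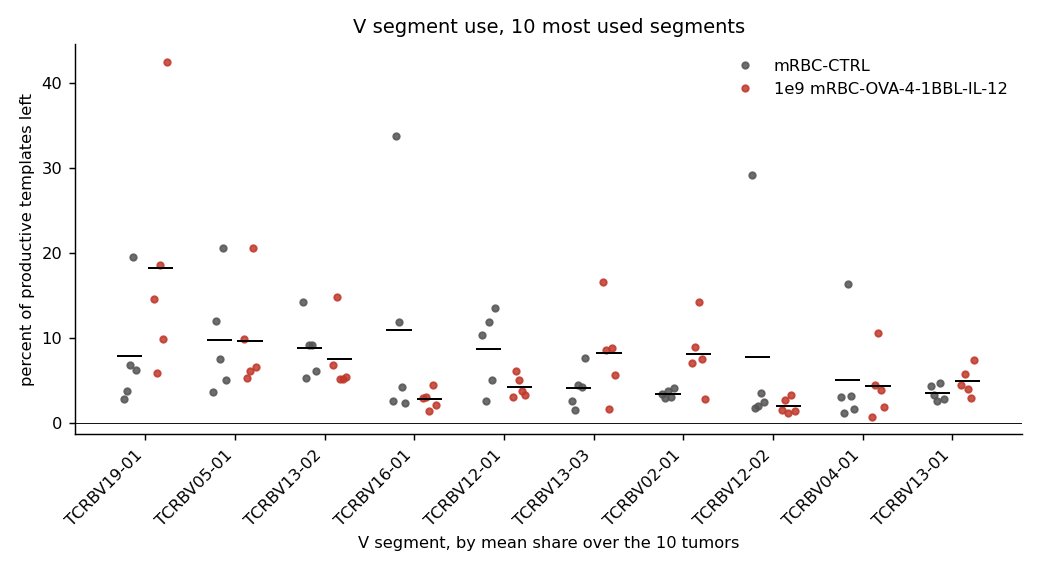
Percent of endogenous productive templates using each of the 10 most used V segments, 1 point per tumor, with a bar at the mean of the 5 tumors, for mRBC-CTRL (grey) and 1e9 mRBC-OVA-4-1BBL-IL-12 (red). Single tumors stand far above the rest of their group, as mRBC-CTRL mouse 2 at 33.8% for TCRBV16-01, mRBC-CTRL mouse 1 at 29.2% for TCRBV12-02 and 1e9 mouse 5 at 42.5% for TCRBV19-01.

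Counting each distinct rearrangement once, which removes the weight of large clones, gave a more even picture. On this count 1 of 20 V segments (5%) reached an adjusted p under 0.05 in edgeR, and the groups did not overlap for 2 (10%). TCRBV12-02 was used by 5.81%, 5.90%, 5.47%, 5.15% and 5.20% of the endogenous rearrangements in the control tumors and by 4.17%, 3.68%, 3.95%, 4.64% and 3.99% in the 1e9 tumors. Every treated tumor lay below every control tumor, and the log2 difference was -0.40 ± 0.13 SE (edgeR adjusted p = 0.0478). The treated values rest on 14 to 47 rearrangements per tumor. TCRBV13-02, the other segment without overlap, was used by 11.3% to 12.2% of the control and 12.4% to 14.2% of the 1e9 rearrangements (log2 difference 0.15 ± 0.056 SE, adjusted p = 0.281). TCRBV16-01 stood at 5.33% ± 0.307 and 5.41% ± 0.461 (SD, n = 5 each).

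Counted by templates, no member of the V segment groups with a known role was called. The TCRBV13 family, known as Vβ8 and the most used mouse Vβ, held 16.4% ± 4.08 of the control and 20.6% ± 7.72 of the treated endogenous templates, and 0 of its 3 members were called. The TCRBV12 family, known as Vβ5, held 16.5% ± 13.7 and 6.24% ± 1.74, with 0 of the 2 members tested called and both log2 differences negative. The segments used by invariant NKT cells, TCRBV13-02, TCRBV29-01 and TCRBV01-01, held 17.6%, 9.02%, 14.6%, 14.4% and 15.6% together in the control tumors and 10.9%, 31.0%, 13.4%, 11.2% and 10.04% in the 1e9 tumors, with 0 of 3 called. The treated mean of 15.3% ± 8.87 lay above the control mean of 14.3% ± 3.19 through mouse 2, and every other treated tumor was below the control mean. By distinct rearrangements these segments held 20.5% ± 0.228 and 22.4% ± 1.27 (SD, n = 5 each), which was not tested. The upstream segments TCRBV01 to TCRBV05 held 24.5% ± 8.85 and 31.1% ± 9.45, with 0 of 5 called and a median log2 difference of 0.35 beside 0.26 over all 21 segments.

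J segment use gave no called segment either. In edgeR 0 of 12 J segments (0%) reached an adjusted p under 0.05, 2 (16.7%) had an unadjusted p under 0.05, DESeq2 called 0, and 0 (0%) had groups without overlap. TCRBJ01-06, the least used of the 12, held 1.19%, 1.14%, 0.860%, 1.20% and 1.90% in the control tumors and 2.79%, 1.56%, 2.45%, 1.34% and 6.04% in the 1e9 tumors. All control tumors but mouse 5 lay below every treated tumor, and the log2 difference was 1.19 ± 0.39 SE (edgeR adjusted p = 0.0993). It passed the threshold when control mouse 5 was left out (adjusted p = 0.0232) or 1e9 mouse 4 (adjusted p = 0.0184), but over the 10 mice left out in turn the adjusted p reached 0.300, and without 1e9 mouse 5 the difference was 0.70 (adjusted p = 0.299). The adjusted p was 0.317 with TMM factors, 0.257 in libraries drawn to the smallest and 0.260 in DESeq2. By distinct rearrangements the difference was 0.064 (edgeR adjusted p = 0.993).

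TCRBJ01-05 was the J segment of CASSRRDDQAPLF in control mouse 1, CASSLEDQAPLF in control mouse 2 and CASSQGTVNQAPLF in 1e9 mouse 3. These clones gave 76.2%, 86.9% and 88.9% of its templates in those tumors. TCRBJ01-05 held 35.0% and 36.7% in control mice 1 and 2 and 1.43% to 6.01% in the other control tumors. In the 1e9 tumors it held 1.45% to 13.4%, the highest in mouse 3 (log2 difference -1.84 ± 0.85 SE, edgeR adjusted p = 0.289). Leaving out 1 mouse gave differences from -2.74, without 1e9 mouse 3, to -1.33, without control mouse 2, and it passed only without control mouse 5 (adjusted p = 0.0478, against 0.0654 to 0.589 without any other mouse). Without the largest clones the difference was -1.19 (edgeR adjusted p = 0.163), and by distinct rearrangements it was -0.0015. The most used segment, TCRBJ02-07, held 27.4% ± 9.25 of the control and 31.7% ± 10.2 of the treated templates. Log2 differences of the other J segments were -0.76 for TCRBJ01-02, 0.46 for TCRBJ01-01, 0.63 for TCRBJ01-03, 0.44 for TCRBJ01-04, 0.63 for TCRBJ02-01, -0.45 for TCRBJ02-02, 0.10 for TCRBJ02-03, -0.54 for TCRBJ02-04, 0.51 for TCRBJ02-05 and 0.21 for TCRBJ02-07, with edgeR adjusted p from 0.494 to 0.832. Segments of the J2 cluster, the downstream D-J-C cluster of the locus, held 39.7%, 53.4%, 65.4%, 74.6% and 71.9% of the control templates and 68.7%, 78.7%, 64.5%, 58.9% and 77.7% of the treated templates. The means of 61.0% ± 14.5 and 69.7% ± 8.52 gave an exact permutation p of 0.302 (n = 5 each). The difference of 8.67 percentage points was 3.33 without control mouse 1 and 4.16 without the largest clones. By distinct rearrangements the shares were 66.6% ± 0.664 and 66.0% ± 2.84.

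CDR3 length was measured in nucleotides. The mean over templates was 41.7, 39.9, 41.8, 40.8 and 39.9 in the control tumors and 40.0, 41.2, 41.6, 41.5 and 41.9 in the 1e9 tumors, which overlapped (40.9 ± 0.927 and 41.2 ± 0.741, exact permutation p = 0.468, n = 5 each). Without the largest clones the difference went from 0.394 to 0.0653 nucleotides. Counted once per rearrangement, the means were 42.1 ± 0.110 and 42.1 ± 0.224 (exact permutation p = 0.778), and the 95% interval of the difference ran from -0.314 to 0.242 nucleotides. In 1 random draw of each library down to 832 templates the difference was 0.426 nucleotides, higher in the treated tumors (exact permutation p = 0.00794). Variation between draws was not measured, and this p does not cover it. Of 9 length classes from 30 to 54 nucleotides, 0 (0%) were called by edgeR, 0 (0%) had an unadjusted p under 0.05, DESeq2 called 0, and 0 (0%) separated the groups. The class of 42 nucleotides, or 14 residues, held 16.3% to 28.1% in the control tumors and 20.9%, 20.6%, 58.2%, 21.5% and 58.9% in the treated tumors. Its highest values came from 1e9 mice 3 and 5. The largest clones of these mice are of this length, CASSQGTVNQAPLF with 11.9% and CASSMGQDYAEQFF with 29.2% of all endogenous templates, so other rearrangements made up most of the class in mouse 3 (log2 difference 0.80 ± 0.44 SE, edgeR adjusted p = 0.466). Without the largest clones the difference was 0.35. The class of 39 nucleotides held 28.8% ± 11.4 and 18.3% ± 7.71 (log2 difference -0.66, adjusted p = 0.466). The classes of 30, 33, 36, 45, 48, 51 and 54 nucleotides had log2 differences of 1.28, -0.33, -0.20, -0.099, -0.38, 0.33 and 0.52, with adjusted p from 0.466 to 0.833.

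**Figure D4:**
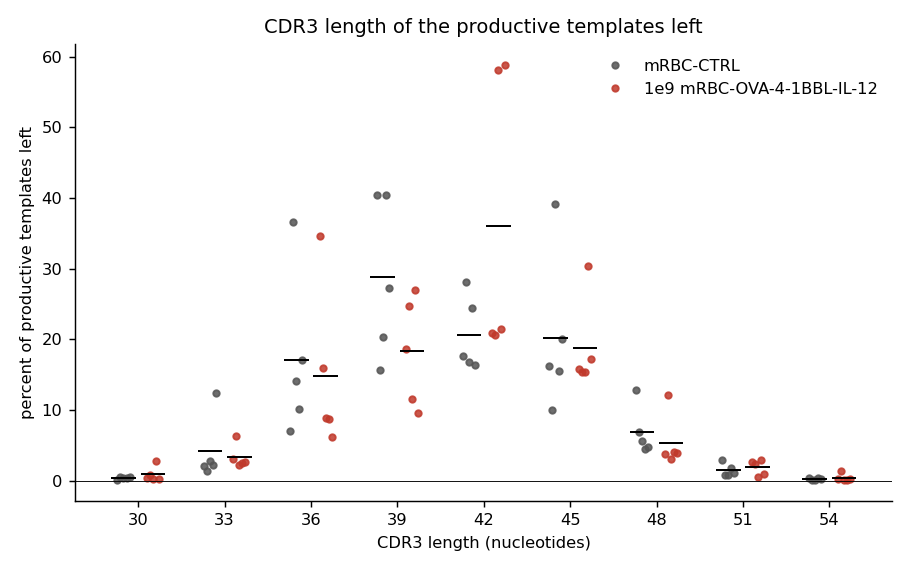
Percent of endogenous productive templates in each tested CDR3 length class, in nucleotides, 1 point per tumor with a bar at the mean of the 5 tumors, for mRBC-CTRL (grey) and 1e9 mRBC-OVA-4-1BBL-IL-12 (red). The points of the groups overlap in all 9 classes; the 2 highest red points at 42 nucleotides are 1e9 mouse 3 (58.2%) and mouse 5 (58.9%).

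The number of untemplated bases overlapped between the groups. A productive rearrangement carried 3.6, 3.56, 3.53, 3.58 and 3.65 N bases on average in the control tumors and 3.79, 3.72, 3.58, 3.72 and 3.65 in the 1e9 tumors. The difference of 0.109 bases had an exact permutation p of 0.0556, or 0.306 after adjustment over the 11 single values (3.58 ± 0.0433 and 3.69 ± 0.0838, SD, n = 5 each). Without the rearrangements of 1 template the difference was -0.018.

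The part of non-productive among distinct rearrangements separated the groups without overlap, but did not pass the adjusted threshold, which no value could pass alone. Non-productive rearrangements were 37.9%, 36.5%, 35.2%, 35.3% and 33.5% of the non-productive and endogenous productive rearrangements together in the control tumors. In the treated tumors they were 43.4%, 42.5%, 42.5%, 40.8% and 40.8%. Each treated tumor lay above each control tumor, at means of 42.0% ± 1.17 and 35.7% ± 1.62 (SD, n = 5 each). The difference was 6.32 percentage points with a 95% interval from 4.29 to 8.55. Its exact permutation p of 0.00794 is the smallest that 5 against 5 mice can give. After adjustment over the 11 single values it was 0.0873, which misses the threshold. However well its groups separated, a value could pass this adjustment only if another value also had a small p. The miss therefore does not show that the groups were alike. The 2.5e8 tumors, as values only, held 36.5%, 42.0%, 37.6%, 41.9% and 38.1%.

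Depth, near-copies of the removed clones and rearrangements of a single template were examined beside this share. Depth differed, as given above, so the share was also computed for 1288 templates per tumor, the number of non-productive and endogenous productive templates in 1e9 mouse 2. It was then 32.5% ± 1.42 in the control and 39.4% ± 2.14 in the treated tumors, a difference of 6.92 points (exact permutation p = 0.00794). Only the productive rearrangements of the removed clones were set aside, so out-of-frame near-copies of them are counted as non-productive. Any other non-productive rearrangements of OT-1 or lymphoma cells were also counted, and cannot be told from those of host cells. The paper reports that OT-1 cells in tumors increased with dose, and their part in this share was not tested. The treated tumors held 20 to 26 non-productive sequences within 2 edits of the OT-1 rearrangement and 1 to 3 near the lymphoma rearrangement, against 9 to 20 and 18 to 23 in the control tumors. Without them the difference was 5.47 points, and at equal depth as well it was 6.00 points, with exact permutation p of 0.00794 for both. The value at 1288 templates and the removal of near-copies were added after the data were seen. The difference was larger among rearrangements seen once. Among rearrangements of 1 template, 38.6% ± 1.80 were non-productive in the control and 46.7% ± 1.58 in the treated tumors. Among those of 2 or more templates the values were 29.3% ± 1.01 and 31.8% ± 2.47, a difference of 2.48 points (exact permutation p = 0.0794). This split was made at full, unequal depth, so 1 template is a smaller share of a control library than of a treated one. Why single templates differed more was not tested.

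**Figure D5:**
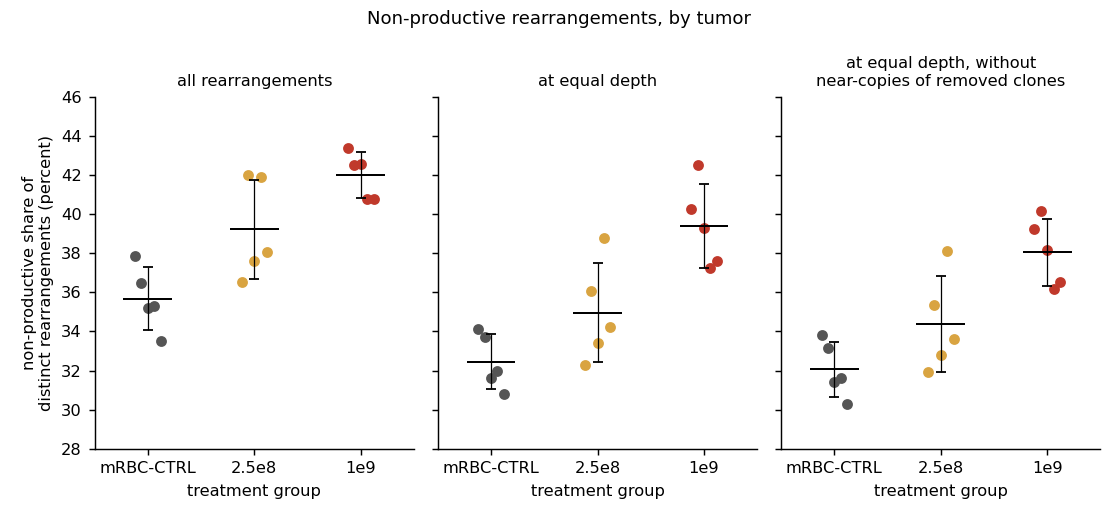
Non-productive rearrangements in percent of distinct non-productive and endogenous productive rearrangements, 1 point per tumor, for mRBC-CTRL (grey), 2.5e8 (yellow) and 1e9 (red) mRBC-OVA-4-1BBL-IL-12, with a bar at the mean and whiskers of 1 SD; the axis does not start at 0. The 3 panels show all rearrangements, the value at equal depth, and the value at equal depth without near-copies of the removed clones, and in each the 5 red points lie above the 5 grey points.

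Weighted by templates, the non-productive share did not separate the groups. It was 21.7%, 38.4%, 29.4%, 25.3% and 29.2% in the control tumors and 31.1%, 35.4%, 28.3%, 36.7% and 34.8% in the 1e9 tumors. The highest value was in control mouse 2, and the means of 28.8% ± 6.23 and 33.3% ± 3.46 gave an exact permutation p of 0.206 (n = 5 each). With all templates of a tumor as denominator, the removed clones included, the difference was -0.507 points (exact permutation p = 0.770). Without control mouse 2 the difference rose from 4.48 to 6.89 points (exact permutation p = 0.0397). In that mouse 1 out-of-frame rearrangement of TCRBV24-01 with TCRBJ02-05 held 2362 templates, 33.0% of its non-productive templates. The largest non-productive rearrangement held 5.24% to 33.0% of the non-productive templates in the control tumors and 10.7% to 25.1% in the treated tumors, and all 10 were out of frame. In control mice 1 to 5 they used TCRBV29-01, TCRBV24-01, TCRBV02-01, TCRBV05-01 and TCRBV13-01. In the treated tumors they used TCRBV02-01, TCRBV13-02, TCRBV04-01, TCRBV17-01 and TCRBV29-01 in mice 1 to 5. Stop codons accounted for 3.07% ± 0.223 of the non-productive rearrangements in the control and 3.06% ± 0.558 in the treated tumors.

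Only 6 non-productive rearrangements were found in all 10 tumors, at 1 to 7 templates in each. Each lay 1 edit from a removed clone, 5 from OT-1 and 1 from the lymphoma clone. An OT-1 neighbor and the lymphoma neighbor are shown to be read against the removed sequences printed at the start.
TCRBV12-01 with TCRBJ02-07, out of frame: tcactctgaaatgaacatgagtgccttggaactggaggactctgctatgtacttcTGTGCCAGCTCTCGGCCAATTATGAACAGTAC
TCRBV15-01 with TCRBJ02-03, out of frame: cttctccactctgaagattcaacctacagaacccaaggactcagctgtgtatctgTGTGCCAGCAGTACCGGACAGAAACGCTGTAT
With these 6 left out, the non-productive share of templates was 28.7% ± 6.23 in the control and 33.1% ± 3.41 in the treated tumors (exact permutation p = 0.222, n = 5 each).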

How the data were processed

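TCRβ CDR3 regions were amplified from tumor genomic DNA by the authors with a bias-controlled multiplex PCR and read on the immunoSEQ platform. The deposited tables give, per nucleotide rearrangement, a count of templates, the V and J segments, the CDR3 length, the inserted bases and the reading frame. The deposited count equalled the estimated number of genomes in all 10 tumor tables. The aligner, build and germline reference are not given in the sources used here.

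Endogenous templates were the counts of in-frame rows without the removed CDR3s, from 832 to 23605 per tumor. A clone is 1 nucleotide rearrangement. Richness was the hypergeometric expectation at 832 templates. A rearrangement that was not read could still hold, at the 95% level, up to the share of 3 templates, 0.0127% to 0.361% of a tumor's endogenous templates. Shares that rest on fewer than 3 templates were taken as imprecise. For 11 single values the groups were compared by a two-sided exact permutation test of all 252 arrangements of the mice (richness and effective number on the log2 scale, smallest p 0.00794), with Benjamini-Hochberg adjustment over the 11. The 95% intervals are the shifts this test did not reject at 0.05. V, J and length counts were fitted with edgeR 4.0.16 (quasi-likelihood, filterByExpr, endogenous templates as library size), with Benjamini-Hochberg adjustment over each table, and with DESeq2 1.42.0 as an alternative, in R 4.3.3. Shares of single tumors carry Wilson intervals from scipy 1.17.1. Scripts were tested on simulated data. The recovery of differences by edgeR was checked at a smaller spread between mice than these data have, so it does not show what could be detected here. The V segments named are the 10 most used and any that passed, plus TCRBV24-01 after its values were seen; all tested J segments and length classes are named. The lists, the comparison and these rules were chosen with earlier results of these data known. Each mouse was 1 replicate. Blood was not analysed here for mRBC-CTRL mouse 1 on day 7, nor for 1e9 mouse 1 on day 0.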

Additional observations from a re-analysis of the deposited data

Results flagged for a closer look

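Among 84 groups of 5 tumors looked at, 13 held a tumor far from the other 4. The cutoff flags about 1 in 20 groups of independent, normally distributed values. These shares are not independent, since V, J and length shares use the same templates, and each flagged tumor was the highest of its group. The count of flags is therefore not a measure of excess over chance. The effective number of clones of 1e9 mouse 2 was 71.2, in the shallowest library. By segment, single tumors stood out for TCRBV04-01 (16.4% in a control tumor), TCRBV12-02 (29.2%, control), TCRBV19-01 (19.5%, control), TCRBJ02-02 (17.3%, control), TCRBV13-02 (14.8%, 1e9) and TCRBJ01-05 (13.4%, 1e9). By CDR3 length they stood out at 33 nucleotides (12.5% in a control tumor and 6.37% in a 1e9 tumor) and, in 1e9 tumors, at 30 (2.71%), 45 (30.4%), 48 (12.1%) and 54 nucleotides (1.32%).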

How the results depend on the processing

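The treated libraries were shallow, and 1e9 mouse 2, with 832 endogenous templates, limits every value at equal depth. Of 194 alternatives for the 11 single values, some added after seeing the data, 175 kept direction and side of an unadjusted p of 0.05. Of 585 for single segments and length classes, 527 kept direction and side of an adjusted p of 0.05. Differences are 1e9 minus mRBC-CTRL, p is from exact permutation, and causes were not tested. Without rearrangements of 1 template, the difference was 0.172 nucleotides for CDR3 length by rearrangements, -0.018 for N bases and 2.48 points for the non-productive share of rearrangements. CDR3 length by rearrangements differed by 0.426 nucleotides in 1 random draw of the libraries to the smallest. N bases differed by 0.111 (exact permutation p = 0.0317) without the largest clones. The non-productive template share differed by -0.507 points with all templates as denominator, and the effective number of clones by -0.2 on ranks. Leaving out each mouse in turn gave differences from -0.42 to -0.041 for log2 richness, -6.20 to 0.373 points for the largest clone, -5.73 to 0.837 for the 10 largest, -0.102 to 0.0373 nucleotides for CDR3 length by rearrangements, 0.0841 to 0.139 for N bases, 3.33 to 12.1 points for the J2 share, 0.162 to 0.703 nucleotides for CDR3 length by templates, 0.041 to 0.71 for the log2 effective number of clones, 2.72 to 6.89 points for the non-productive template share and 2.55 to 6.72 for it without shared rearrangements. It gave 0 to 2 called segments for V (2 without mRBC-CTRL mouse 5, TCRBV12-02 and TCRBV16-01) and 0 to 2 for J.

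The mouse numbers name different animals in each group. Same-numbered mice correlated at -0.295 to -0.0183 over 21 V segments, and 0 mice correlated best with their own number, so the samples share only a number. Under a replicate block by mouse number, the non-productive share of rearrangements still differed by 6.32 points, at the smallest possible p of 0.0625, and 1 J segment, TCRBJ01-06, was called (edgeR adjusted p = 0.0160). With the block the log2 differences of TCRBV05-01, TCRBJ02-02, 33 nucleotides and 45 nucleotides were 0.071, 0.13, 0.083 and 0.0066.

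By distinct rearrangements 1 V segment was called, and DESeq2 called 1. By distinct rearrangements the log2 differences that changed sign were -0.0053 for TCRBV02-01, 0.035 for TCRBV12-01, -0.12 for TCRBV13-01, 0.15 for TCRBV13-02, -0.11 for TCRBV13-03, 0.030 for TCRBV16-01, 0.12 for TCRBJ01-02, -0.073 for TCRBJ01-04, -0.13 for TCRBJ02-01, -0.0023 for TCRBJ02-03, -0.023 for TCRBJ02-07, and -0.25, 0.15 and 0.010 for 30, 36 and 45 nucleotides. Without the largest clones they were 0.078 for TCRBV16-01, -0.40 for TCRBJ01-04, -0.089 for TCRBJ02-01, 0.25 for TCRBJ02-02, 0.022 for TCRBJ02-04, and 0.16 and 0.052 for 36 and 45 nucleotides. TCRBJ02-03 changed sign to -0.039 with TMM factors, -0.13 in the smallest-library draw and -0.13 in DESeq2, which also gave -0.018 for TCRBJ02-07 and 0.045 for 45 nucleotides. TMM factors gave 0.11 for 45 nucleotides. Leaving out each mouse in turn gave log2 differences from -0.91 to 0.94 for TCRBV04-01, -0.49 to 0.46 for TCRBV05-01, -0.29 to 0.68 for TCRBJ01-04, -0.68 to 0.52 for TCRBJ02-02, -0.34 to 0.36 for TCRBJ02-03, -0.98 to 0.091 for TCRBJ02-04, and, by CDR3 length, -0.033 to 1.55 for 30, -0.68 to 0.65 for 33, -0.78 to 0.29 for 36, -0.34 to 0.29 for 45 and -0.48 to 0.79 for 54 nucleotides.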
